A study of Mus musculus with 12 samples.

Results

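The growth hormone and IGF axis was followed here through 10 genes, chosen by name for their place in the pathway. The choice was made with earlier results of these data known. They are the receptor gene Ghr, the transcription factor genes Stat5a and Stat5b, the feedback and repressor genes Socs2, Cish and Bcl6, the hormone gene Igf1, and the carrier genes Igfals, Igfbp2 and Igfbp4. These are 10 of the 55385 features in the table of values, and 10 of 10 passed the filter on low values, which 16378 features passed in all.

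In hepatocytes, growth hormone binds its receptor, the associated kinase JAK2 phosphorylates STAT5, and STAT5 moves to the nucleus and turns on target genes that include Igf1, Socs2, Cish and Igfals. The liver secretes IGF-1 into the blood, where most of it travels in a ternary complex with a binding protein and the acid-labile subunit encoded by Igfals. The same pathway sets much of the difference between male and female liver, since male mice release growth hormone in pulses and females more continuously, and STAT5b reads the pattern.

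Livers came from male C57BL/6 mice given adenovirus at 7 weeks of age, at a total of 500000000 plaque-forming units per mouse. The livers were collected 7 days later. The 3 groups held 4 mice each, so every animal had received adenovirus: Ad-Ctrl mice received the Lac virus with the empty vector pAdV5, Ad-shmGULL mice received a short hairpin RNA against the mouse long noncoding RNA mGULL with pAdV5, and Ad-shmGULL+hGULL mice received the hairpin together with the human RNA hGULL. The comparisons ask what knockdown of mGULL did in liver (Ad-shmGULL minus Ad-Ctrl, below "knockdown minus control"), what adding hGULL did (rescue minus knockdown) and how far the rescue mice stood from control (rescue minus control). They are not independent, because each pair of comparisons shares a group of mice. The route is given as intravitreal for this experiment, while the general virus methods describe an injection into the orbital venous plexus, and the sources used here do not say which hairpin was given. The levels of mGULL and hGULL were not analysed here, so the knockdown itself was not checked in these libraries.

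Values are TPM, a relative abundance per transcript, which are scaled for transcript length and sum to 1000000 in each mouse, so levels can be set side by side between genes but sequencing depth is unknown. Fold changes are log2 differences of TPM + 1 from limma, fitted across all 16378 features, and a change is called where the Benjamini-Hochberg adjusted p over those features is under 0.05. A second, looser cutoff takes an unadjusted p under 0.05 together with a log2 difference of more than 0.5 up or down. Between 24.6% and 34.2% of all TPM lay in the 20 highest genes of a mouse, and the median feature was 0.17 higher on the log2 scale in rescue than in control mice, against 0.087 in knockdown minus control and 0.093 in rescue minus knockdown. All 37 mitochondrially encoded features are listed at 0 in every mouse, so a value of 0 in the table is no evidence of silence. The hepatocyte markers Alb, Apoa1, Apob, Ttr, Serpina1a and Tat summed to between 67735 and 109784 TPM per mouse, so the defining markers of the labelled tissue were present. In whole liver, fewer cells of a type and less RNA per cell cannot be told apart.

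Of the 10 genes, Igf1 alone was called. Its liver level fell in Ad-shmGULL mice to 54.5% of the Ad-Ctrl mean, with no overlap between the groups, and stood between the other groups in the rescue mice. Socs2, a feedback inhibitor of the receptor, had a mean 48.8% of control after knockdown, but its mice overlapped and the adjusted p was 0.194. Ghr, Stat5b, Cish, Bcl6, Igfals, Igfbp2 and Igfbp4 had an adjusted p between 0.234 and 0.93 in the same comparison, and Stat5a, the uncalled gene with the smallest adjusted p, was 0.48 higher on the log2 scale with an adjusted p of 0.0776.

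Levels in the control livers differed widely between the genes. Igfbp4 was the most abundant of the 10 genes at 981 ± 60.2 TPM (SD, n = 4), and no control mouse overlapped the next gene, Igfbp2, at 354 ± 247 TPM. Igf1 at 177 ± 21.6 TPM and Ghr at 166 ± 16.9 TPM overlapped each other and the lower Igfbp2 mice. Igfals followed at 65.5 ± 12.5 TPM, apart from Ghr above it and from Stat5b, at 38.2 ± 2.01 TPM, below it. Bcl6 at 25.0 ± 19.7 TPM, with its highest control mouse at 54.2 TPM, overlapped Igfals, Stat5b, Stat5a and Cish. Stat5a at 9.0 ± 1.69 TPM, Cish at 7.54 ± 3.46 TPM and Socs2 at 7.38 ± 1.67 TPM overlapped one another, so their order is not resolved.

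**Figure D1:**
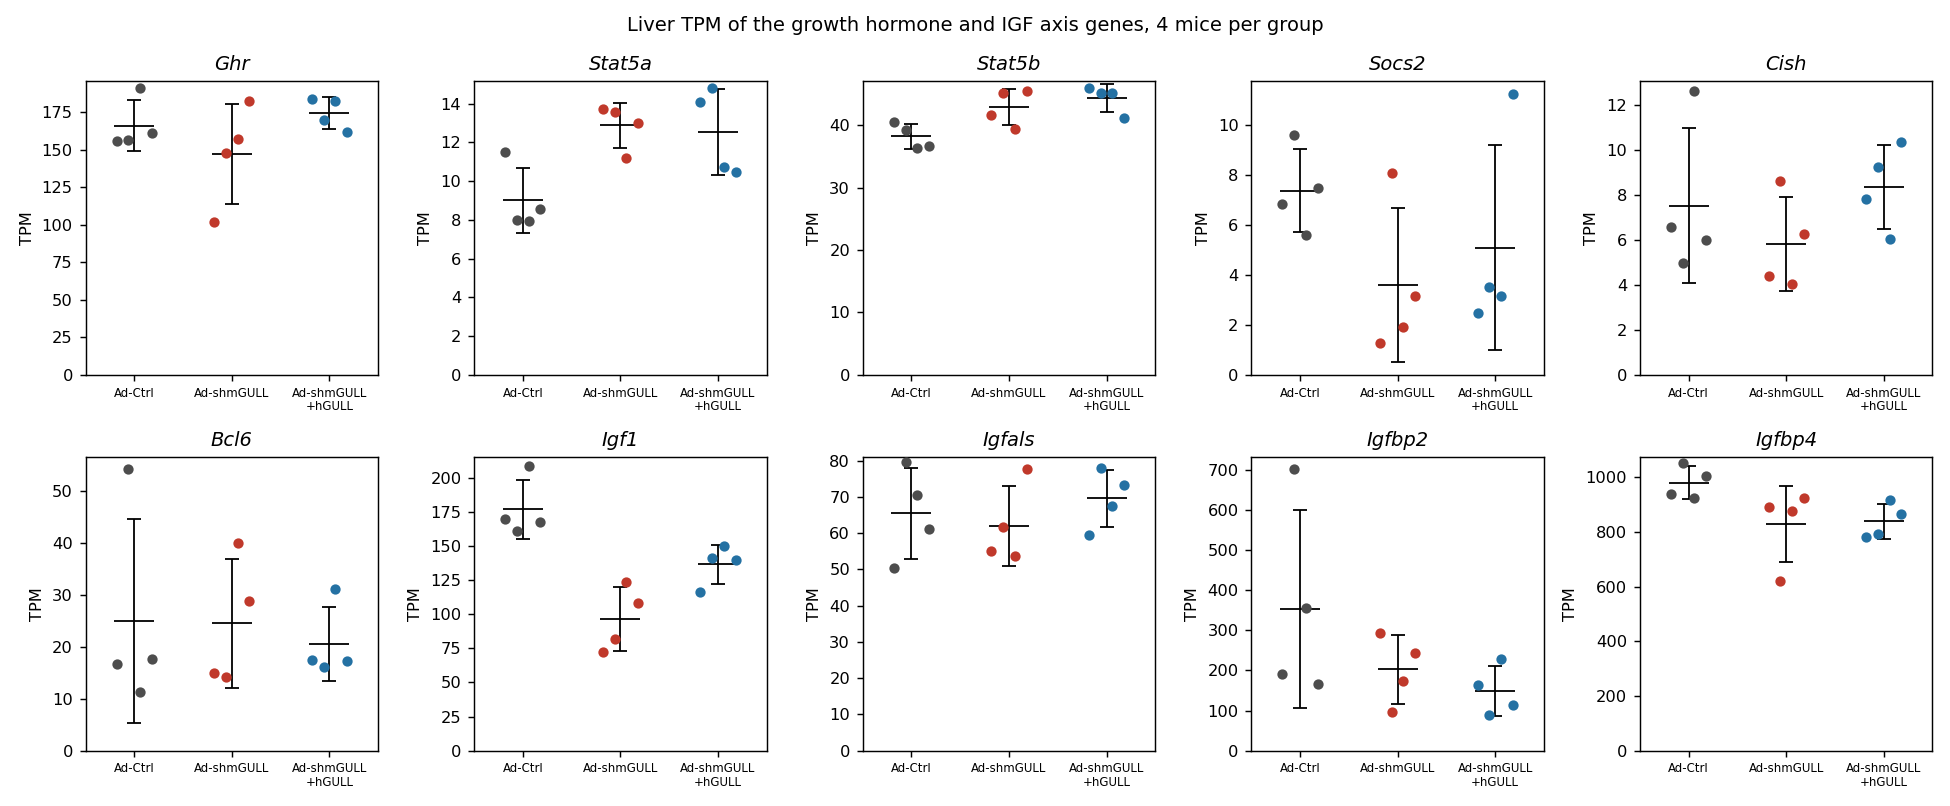
TPM of the 10 genes (y axis, linear, from 0) in each of the 12 mice (points), by group (x axis, 4 mice each), with the group mean and SD as a horizontal line and bars. The 4 Ad-shmGULL mice sit between 72.1 and 124 TPM for Igf1, all below the lowest Ad-Ctrl mouse at 161 TPM, while the groups overlap for the other 9 genes in knockdown minus control.

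The receptor gene Ghr (chr15:3317755-3583352 in GRCm38.p6, as for all positions given here) encodes the cell-surface protein that binds growth hormone. Its level was 156, 157, 191 and 161 TPM in Ad-Ctrl mice 1 to 4, 102, 148, 157 and 182 TPM in Ad-shmGULL mice, and 184, 170, 183 and 162 TPM in rescue mice. The groups overlapped, and the lowest value of the 12 belonged to Ad-shmGULL mouse 1, which also had the lowest Igf1. The log2 fold change was -0.20 in knockdown minus control (95% interval -0.51 to 0.12, adjusted p = 0.482), 0.27 in rescue minus knockdown (-0.04 to 0.59, adjusted p = 0.518) and 0.07 in rescue minus control (-0.24 to 0.39, adjusted p = 0.77). The last of these turned to -0.13 under median-of-ratios scaling and to -0.055 under quantile normalization. These intervals leave room for a fall of 0.51 on the log2 scale after knockdown, so a modest change in receptor mRNA was not measurable with 4 mice a group.

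Stat5a (chr11:100859351-100885169) and Stat5b (chr11:100780731-100859004) encode the 2 forms of STAT5, of which STAT5b is the main form in liver. They are neighbours, with 346 bases between the end of Stat5b and the start of Stat5a, and close paralogs, so reads from shared stretches may have been divided between them. Stat5a was 11.5, 7.99, 7.96 and 8.55 TPM in Ad-Ctrl mice 1 to 4, 13.7, 13.6, 11.2 and 13.0 TPM in Ad-shmGULL mice, and 14.1, 14.8, 10.7 and 10.5 TPM in rescue mice. Ad-Ctrl mouse 1 stood above the other 3 controls and was the only control mouse inside the range of either treated group. Stat5a differed by 0.48 ± 0.14 (SE) on the log2 scale in knockdown minus control, with an adjusted p of 0.0776 that became 0.0274 without Ad-Ctrl mouse 1, and by 0.43 ± 0.14 in rescue minus control, with an adjusted p of 0.0958 that became 0.0347 without the same mouse. In each comparison this was the 1 call in 12 fits that left out 1 mouse. Of 8 other alternatives, 0 called Stat5a in knockdown minus control and 1 in rescue minus control, with an adjusted p of up to 0.152 and 0.382. Leaving out Ad-Ctrl mouse 1 also raised the calls over all features, from 529 to 946 and from 352 to 1068. For Stat5a, rescue minus knockdown was -0.05 (95% interval -0.35 to 0.25).

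Stat5b was steadier. It ranged from 36.4 to 40.5 TPM in Ad-Ctrl, from 39.5 to 45.5 TPM in Ad-shmGULL and from 41.1 to 46.0 TPM in rescue mice, so the 4 rescue mice all stood above the 4 controls. The log2 fold change was 0.16 in knockdown minus control (adjusted p = 0.234) and 0.21 in rescue minus control (adjusted p = 0.113). The second is 0.04 relative to the median of all features in that comparison, and it was 0.01 under median-of-ratios scaling. Rescue minus knockdown was 0.05, and turned to -0.048 under median-of-ratios scaling and -0.042 under quantile normalization.

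The feedback genes Socs2 and Cish encode proteins of the SOCS family that bind the activated receptor and shut the signal off, and both are classical STAT5 targets in liver. Bcl6 encodes a repressor that competes with STAT5 at its sites and is itself held down by growth hormone in liver. STAT5 binds the palindrome TTCNNNGAA, which reads the same on both strands. RefSeq promoter windows of GRCm38.p6, from 250 bases before to 50 bases after an annotated start, were given for 9 of the 10 genes, all but Socs2. The motif was found in 5 of their 16 windows and in 3 of the 9 genes, Cish, Bcl6 and Igfals, against 8.3% of the 32851 windows and 9.55% of the 27025 genes in the table. The matches are printed because they show which promoters of the axis carry the letters of the site, each 5′ to 3′ on the gene's strand, with up to 10 flanking bases and the motif in capitals.
Cish, chr9:107296654-107296683 (+), 2 matches, beginning at the start base and 11 bases after it: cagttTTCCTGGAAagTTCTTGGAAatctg
Bcl6, chr16:23981433-23981461 (-), beginning 168 bases before the start: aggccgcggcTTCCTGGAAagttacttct
Bcl6, chr16:23981387-23981415 (-), beginning 122 bases before the same start: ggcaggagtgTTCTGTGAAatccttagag
Bcl6, chr16:23981353-23981381 (-), beginning 88 bases before the same start: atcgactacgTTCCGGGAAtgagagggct
Bcl6, chr16:23988952-23988980 (-), beginning 118 bases before a second start: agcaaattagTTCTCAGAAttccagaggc
Igfals, chr17:24877598-24877626 (+), beginning 236 bases before the start: gatctataatTTCTCAGAAaagaggctga
Igfals, chr17:24878163-24878191 (+), beginning 58 bases before a second start: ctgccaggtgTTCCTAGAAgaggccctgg
The 2 Cish matches lie side by side, and the first shares its 9 letters with the Bcl6 match at chr16:23981433-23981461. A match in letters is not a measured binding site, and binding of STAT5 was not analysed here. None of the 3 genes with a match in its window was called in any comparison, and the windows of Ghr, Stat5a, Stat5b, Igf1, Igfbp2 and Igfbp4 hold no match. Sequence outside these windows was not searched, so a gene without a match here may carry the motif elsewhere.

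Socs2 (chr10:95383903-95417321) was 6.85, 9.59, 5.59 and 7.48 TPM in Ad-Ctrl mice 1 to 4, 1.26, 8.06, 1.93 and 3.15 TPM in Ad-shmGULL mice, and 2.47, 3.52, 3.17 and 11.2 TPM in rescue mice. In both treated groups 3 of 4 mice lay below every control, and the fourth, Ad-shmGULL mouse 2 or rescue mouse 4, lay inside or above the control range. The spread was therefore wide, with the highest Ad-shmGULL mouse 6.39 times the lowest. The log2 fold change in knockdown minus control was -1.05 ± 0.43 (SE), which passed the looser cutoff but not the adjusted one (adjusted p = 0.194). Without Ad-shmGULL mouse 2 it was -1.45 (adjusted p = 0.092), and without Ad-Ctrl mouse 2, Ad-Ctrl mouse 4 or Ad-shmGULL mouse 1 the gene no longer passed the looser cutoff. Rescue minus knockdown was 0.42 (95% interval -0.52 to 1.36) and rescue minus control -0.63 (-1.58 to 0.31). On leaving out 1 mouse the first ran from 0.020, without rescue mouse 4, to 0.82, without Ad-shmGULL mouse 2, and the second from -1.04, without rescue mouse 4, to -0.43, without rescue mouse 1.

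Cish (chr9:107296659-107302784) ranged from 4.96 to 12.6 TPM in Ad-Ctrl, from 4.06 to 8.62 TPM in Ad-shmGULL and from 6.04 to 10.4 TPM in rescue mice. Its log2 fold changes were -0.29 in knockdown minus control (95% interval -0.87 to 0.28), 0.48 in rescue minus knockdown (-0.10 to 1.06) and 0.19 in rescue minus control (-0.39 to 0.77), and the last was -0.00055 under quantile normalization. Ad-Ctrl mouse 3, at 12.6 TPM, was the highest of the 12. Without it knockdown minus control was -0.042 and rescue minus control 0.44, and over all fits that left out 1 mouse these ran from -0.47 to -0.042 and from 0.042 to 0.44. Bcl6 (chr16:23965050-23988866) had a different profile, with most mice near a common level and single mice well above it. It was 16.7, 54.2, 11.4 and 17.8 TPM in Ad-Ctrl, 14.9, 14.2, 40.1 and 28.8 TPM in Ad-shmGULL, and 17.5, 16.2, 31.2 and 17.2 TPM in rescue mice. The high mice occurred in every group, and the fitted differences of 0.10, -0.17 and -0.07 had 95% intervals that reached at least 0.77 above and below 0 on the log2 scale, so no difference was measurable.

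Igf1 (chr10:87858265-87937047) encodes the secreted hormone IGF-1, for which liver is the main source in blood. Its level was 170, 161, 209 and 168 TPM in Ad-Ctrl mice 1 to 4, a mean of 177 ± 21.6 (SD, n = 4). In Ad-shmGULL mice it was 72.1, 82.0, 124 and 108 TPM, a mean of 96.5 ± 23.7, and in rescue mice 116, 141, 150 and 140 TPM, a mean of 137 ± 14.4. The Ad-shmGULL mice were all below the lowest control, and 3 of the 4 rescue mice were above the highest Ad-shmGULL mouse and all 4 below the lowest control.

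In knockdown minus control, Igf1 fell by 0.89 on the log2 scale (SE 0.16, 95% interval -1.23 to -0.56, adjusted p = 0.0139, limma). The call was made in 12 of 12 fits that each left out 1 mouse, with log2 fold changes from -1.02 to -0.77, and in 7 of 8 other alternatives. It was lost where only the 2 groups were fitted (adjusted p = 0.0579), a fit in which 33 features in all were called in place of 529. Under median-of-ratios scaling and quantile normalization the direction and the call were the same. The overlapping antisense gene Igf1os was listed at 0.62 to 2.16 TPM over the 12 mice, and how reads from the opposite strand were counted is not given in the sources used here.

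In rescue minus knockdown, Igf1 was 0.52 higher on the log2 scale (SE 0.16, 95% interval 0.19 to 0.86), which passed the looser cutoff, with an adjusted p of 0.363. The difference was 0.43 under median-of-ratios scaling and array weights and 0.46 under quantile normalization, all under the looser cutoff, and it was 0.40 without Ad-shmGULL mouse 1 and 0.48 without rescue mouse 3. In rescue minus control, Igf1 was -0.37 (SE 0.16, 95% interval -0.71 to -0.03, adjusted p = 0.165), or -0.54 relative to the median of all features. It was called there only with array weights (-0.36, adjusted p = 0.0468), and its mean was 77.2% of control.

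**Figure D2:**
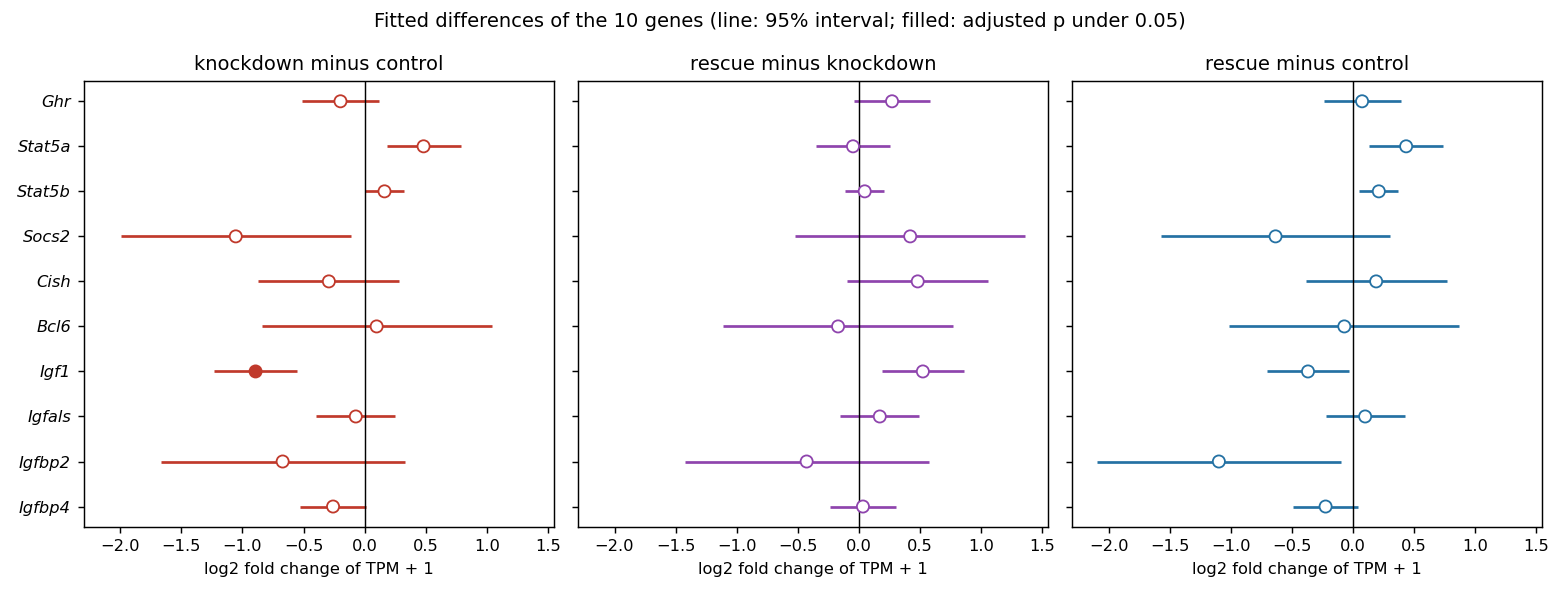
Fitted log2 fold changes of TPM + 1 (x axis) of the 10 genes (y axis) in the 3 comparisons, with 95% intervals as lines and a filled point for an adjusted p under 0.05. The single filled point is Igf1 at -0.89 in knockdown minus control, and the widest lines belong to Igfbp2, Socs2 and Bcl6.

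None of the 3 carrier genes was called in any comparison. Igfals (chr17:24877844-24882011), whose protein holds IGF-1 in the ternary complex, ranged from 50.5 to 79.6 TPM in Ad-Ctrl, from 53.7 to 77.8 TPM in Ad-shmGULL and from 59.5 to 77.9 TPM in rescue mice. Its log2 fold change in knockdown minus control was -0.07, with a 95% interval from -0.40 to 0.25 that ends above the fitted change of Igf1, and it was 0.047 with array weights. Rescue minus knockdown was 0.17 (-0.15 to 0.50) and rescue minus control 0.10 (-0.23 to 0.42), the latter turning to -0.10 under median-of-ratios scaling and -0.071 under quantile normalization.

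Igfbp2 (chr1:72824480-72852474) encodes a binding protein that forms smaller complexes with IGF and whose liver expression growth hormone lowers. It was 191, 703, 355 and 167 TPM in Ad-Ctrl mice 1 to 4, 295, 97.4, 175 and 244 TPM in Ad-shmGULL mice, and 163, 88.0, 229 and 114 TPM in rescue mice. Ad-Ctrl mouse 2 was far above the rest, and the groups overlapped in every comparison. Knockdown minus control was -0.67 (95% interval -1.67 to 0.33, adjusted p = 0.45) and -0.26 without Ad-Ctrl mouse 2. Rescue minus control was -1.10 (SE 0.46, adjusted p = 0.164), past the looser cutoff, which it did not pass with the replicate block, with array weights, or without Ad-Ctrl mouse 2, Ad-Ctrl mouse 3 or rescue mouse 2.

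Igfbp4 (chr11:99040005-99052655), whose protein restrains IGF action locally, ranged from 925 to 1054 TPM in Ad-Ctrl, from 620 to 925 TPM in Ad-shmGULL and from 781 to 917 TPM in rescue mice. Ad-shmGULL mouse 2, at 620 TPM, lay below the rest of its group. The 4 rescue mice were all below the 4 controls, and 3 of 4 Ad-shmGULL mice were. The log2 fold changes of -0.26 in knockdown minus control (95% interval -0.53 to 0.01, adjusted p = 0.262) and -0.23 in rescue minus control (-0.49 to 0.04, adjusted p = 0.266) were not called. Rescue minus knockdown was 0.03 and turned to -0.065 under median-of-ratios scaling and -0.016 with array weights.

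Counted together, 1 of the 10 genes, Igf1, was called in knockdown minus control, against 3.23% of all features in either direction and 0.794% in the lower direction. The features called lower numbered 130, and 341 under median-of-ratios scaling and 288 under quantile normalization. At the looser cutoff 2 passed, Igf1 and Socs2, against 7.65% of all features and 2.3% in the lower direction. Igf1 alone had groups that did not overlap, against 8.99% of features, 2.06% of them with the lower values after knockdown. Of the 10 genes 7 were lower, with a median log2 fold change of -0.23 beside a median of 0.087 over all features.

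In rescue minus knockdown, 0 of the 10 genes and 0% of all features were called. The smallest adjusted p of limma over all features was 0.117, and 1757 features, with Igf1 the only one of the 10, had an unadjusted p under 0.05. Igf1 was also the only one of the 10 past the looser cutoff, against 3% of features and 2.33% in the higher direction, and 0 genes had groups that did not overlap, against 6.38%. The median of the 10 was 0.11 beside 0.093 over all features.

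In rescue minus control, 0 of the 10 genes were called, against 2.15% of all features. An unadjusted p under 0.05 in limma was reached by 4 of the 10, and by 4149 of all 16378 features. Igfbp2 alone passed the looser cutoff, against 7.49% of features and 0.641% in the lower direction. The groups did not overlap for 3 genes, Stat5b higher and Igf1 and Igfbp4 lower, against 22.3% of features, or 21.4% higher and 0.855% lower. The median of the 10 was 0.0009 beside 0.17 over all features. With array weights 3 genes were called, Stat5a, Stat5b and Igf1, in a fit that called 3184 features in place of 352.

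Of 14 other genes of growth hormone receptor and JAK-STAT signalling, 14 were tested and 1 rose in knockdown minus control, with 0 lower and a median of -0.01, where 2.44% of all features were called higher. It was Irs1, an adaptor of the insulin and IGF-1 receptors. In that comparison the groups did not overlap for 1 gene of the list higher, Irs1, and for 1 gene lower. Of all features, 6.93% stood apart higher and 2.06% lower. Irs1 was 15.2, 15.8, 19.8 and 17.2 TPM in Ad-Ctrl, 21.5, 22.8, 21.6 and 26.6 TPM in Ad-shmGULL, and 26.6, 22.6, 26.7 and 23.6 TPM in rescue mice. Both treated groups lay above every control, as 6.93% of all features did in knockdown minus control and 21.4% in rescue minus control, by 0.43 ± 0.10 (SE, adjusted p = 0.0448) and 0.53 ± 0.10 (adjusted p = 0.039) on the log2 scale. Both calls are fragile. The first was made in 2 of 12 fits that each left out 1 mouse and in 3 of 8 other alternatives, with an adjusted p of 0.117 under median-of-ratios scaling, and the second in 4 of 12 and 4 of 8, with an adjusted p of 0.213 there. The most abundant others, Stat3, an acute-phase transcription factor, and Ptpn11, a phosphatase in receptor signalling, were at -0.01 and 0.15 with adjusted p of 0.982 and 0.264. Chosen after their values were seen, Socs1, an interferon-responsive feedback inhibitor, was at -0.61 in knockdown minus control (adjusted p = 0.177) and 0.65 in rescue minus knockdown (adjusted p = 0.404), past the looser cutoff in both, and the leptin receptor gene Lepr was at 0.93 (adjusted p = 0.159) after knockdown. In the list as a whole 0 were called in rescue minus knockdown (median 0.11) and 1, Irs1, in rescue minus control (median 0.11).

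Of 14 other IGF ligands, receptors, carriers and carrier proteases, 9 passed the filter, and 1 rose in knockdown minus control and 0 fell, with a median of 0.22. It was Igf2r, whose product, the mannose 6-phosphate receptor, takes up IGF-2 and carries lysosomal enzymes, and whose gene is overlapped by the antisense RNA gene Airn. Igf2r was 46.6, 39.3, 42.1 and 44.3 TPM in Ad-Ctrl, 57.1, 66.1, 51.1 and 62.4 TPM in Ad-shmGULL, and 61.7, 62.7, 56.2 and 57.0 TPM in rescue mice. Every treated mouse of either group lay above every control, a separation shared by 6.93% of all features in knockdown minus control and 21.4% in rescue minus control. The differences were 0.45 ± 0.089 (SE, adjusted p = 0.0231) and 0.46 ± 0.089 (adjusted p = 0.039) on the log2 scale, and the rescue mice were 0.01 from the knockdown mice (95% interval -0.18 to 0.20), a difference that turned negative under median-of-ratios scaling (-0.087), quantile normalization (-0.081) and array weights (-0.0085). The knockdown call was made in 7 of 12 fits that left out 1 mouse and in 7 of 8 others, and the rescue minus control call in 4 of 12 and 4 of 8, with an adjusted p of up to 0.142 on leaving out 1 mouse and of 0.121 under median-of-ratios scaling. The abundant carriers Igfbp1, an insulin-repressed gene, and Igfbp7 were at -0.25 (adjusted p = 0.658) and 0.22 (adjusted p = 0.283) in knockdown minus control.

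Igfbp3, the main carrier of IGF-1 in the ternary complex, was named after its values were seen. It was 10.1, 11.1, 16.4 and 17.2 TPM in Ad-Ctrl, 22.3, 18.1, 19.4 and 24.8 TPM in Ad-shmGULL, and 15.8, 13.2, 14.4 and 17.3 TPM in rescue mice. The Ad-shmGULL mice lay above every mouse of both other groups, by 0.62 over control (adjusted p = 0.0617) and with a rescue minus knockdown of -0.45 (adjusted p = 0.404), so the highest levels of this carrier were in the group with the lowest Igf1, without a call in either comparison. Of all features, 6.93% stood apart and higher in knockdown minus control, and 6.38% stood apart in either direction in rescue minus knockdown. In the IGF list as a whole, 0 were called in rescue minus knockdown (median -0.06) and 1, Igf2r, in rescue minus control (median 0.11).

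**Figure D3:**
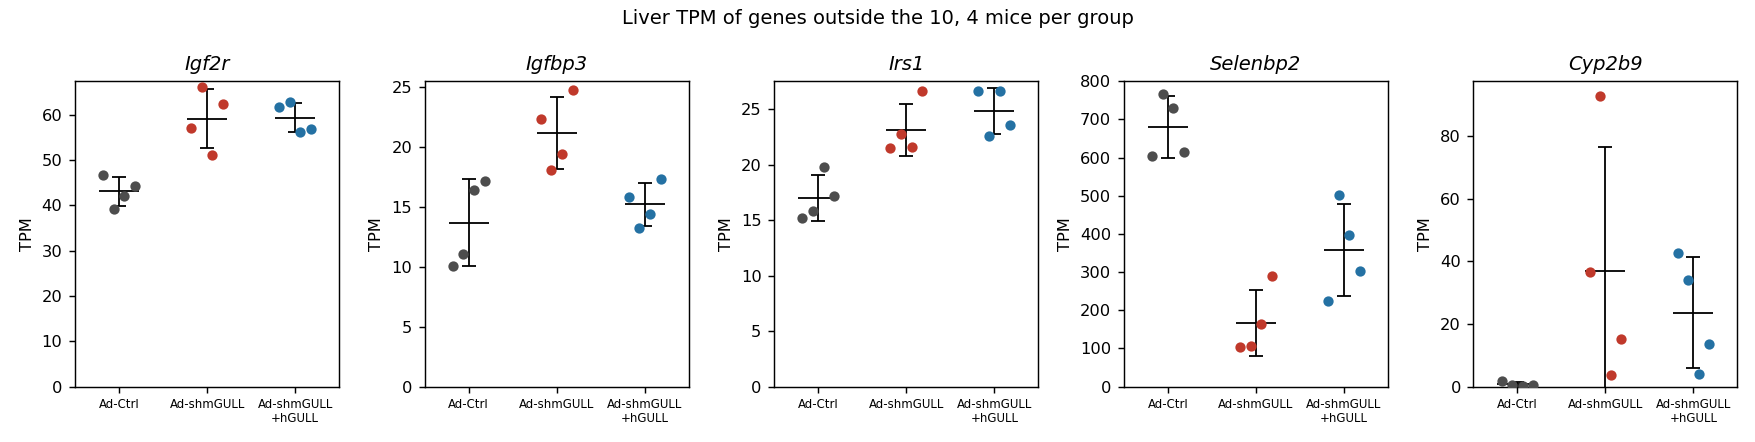
TPM (y axis, linear, from 0) of 5 genes outside the 10 in each of the 12 mice (points), by group (x axis, 4 mice each), with the group mean and SD as a line and bars. Igf2r and Irs1 are higher in both treated groups than in Ad-Ctrl, Igfbp3 is highest in Ad-shmGULL, Selenbp2 is lowest there, and Cyp2b9 is at 1.80 TPM or less in the 4 controls and spread from 3.65 to 92.8 TPM in the 8 treated mice.

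Many genes with a known male or female bias in mouse liver follow the pattern of growth hormone signalling, which was not measured here. Whether growth hormone had a part in their changes was not tested. Of 16 male-biased genes, 16 were tested in knockdown minus control. The test called 3 lower and 0 higher, where 0.794% of all features were called lower, and the median was -0.53. At the looser cutoff 7 were lower and 3, Cyp4a12a, Cyp4a12b and Cyp2u1, higher, while 2.3% of all features passed it lower and 5.35% higher. Selenbp2, a selenium-binding protein gene, fell by 2.15 on the log2 scale (SE 0.30, adjusted p = 0.00747), from 605, 766, 730 and 615 TPM in Ad-Ctrl to 105, 107, 163 and 290 TPM in Ad-shmGULL, and stood at 225, 503, 398 and 303 TPM in rescue mice. Its groups did not overlap in knockdown minus control or in rescue minus control, where 2.06% and 0.855% of all features stood apart and lower. The call in knockdown minus control was made in 12 of 12 fits that left out 1 mouse and 8 of 8 others. Cyp7b1, an oxysterol hydroxylase of bile acid synthesis, fell by 1.09 (SE 0.24, adjusted p = 0.0306, called in 7 of 12 fits that left out 1 mouse and 5 of 8 others), although Ad-shmGULL mouse 4 at 503 TPM was inside the control range of 469 to 672 TPM. Ugt2b38, a glucuronosyltransferase, fell by 1.60 (SE 0.37, adjusted p = 0.0396, called in 2 of 12 and 5 of 8), and its Ad-shmGULL mouse 4 at 10.6 TPM was also inside the control range of 7.55 to 24.1 TPM. Selenbp2, Ugt2b38 and the Cyp4a12 pair have near-identical relatives in the genome, so their reads may have been divided between copies.

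Of 16 female-biased genes, 7 passed the filter and 3 of them were called in knockdown minus control, all higher, with a median of 0.54, where 2.44% of all features were called higher. The other 9 did not reach a mean of 1 TPM. Cyp2b9, a cytochrome P450, was 1.80, 0.50, 0.27 and 0.64 TPM in Ad-Ctrl, 36.6, 92.8, 3.65 and 15.1 TPM in Ad-shmGULL, and 42.6, 33.9, 4.09 and 13.7 TPM in rescue mice. The filter took the mean over all mice. Cyp2b9 averaged 0.80 TPM in Ad-Ctrl and passed only through the Ad-shmGULL and rescue mice, with means of 37.1 and 23.6 TPM. Its place among the tested genes was therefore tied to its rise. Cyp2a4, a steroid hydroxylase, was 32.3, 6.58, 4.06 and 16.6 TPM in Ad-Ctrl, 246, 332, 37.1 and 95.7 TPM in Ad-shmGULL, and 210, 132, 29.6 and 119 TPM in rescue mice. Neither group of Ad-shmGULL values overlapped control, a separation that 6.93% of all features showed with higher values after knockdown. Within each treated group the mice differed several-fold, mouse 3 being the lowest.

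The log2 fold changes in knockdown minus control were 3.72 for Cyp2b9 (SE 0.83, adjusted p = 0.0332) and 3.43 for Cyp2a4 (SE 0.77, adjusted p = 0.036), called in 5 and in 4 of the 12 fits that left out 1 mouse and in 5 of 8 others each, and both genes have near-identical relatives. Acot3, a peroxisomal acyl-CoA thioesterase that is also a target of PPARα, rose by 1.67 (SE 0.32, adjusted p = 0.0194, called in 10 of 12 and 6 of 8), from 7.82 to 13.1 TPM in Ad-Ctrl to 23.7 to 48.9 TPM in Ad-shmGULL. None of the 3 was called without a filter or with array weights. The female-biased genes of the classical kind Sult3a1 and Sult2a1, named after their values were seen, were listed at 0 TPM in every control mouse and averaged at most 0.22 TPM in a treated group.

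In rescue minus knockdown, 0 male-biased genes were called (median 0.13) and 0 female-biased ones (median 0.12), with Selenbp2 at 1.17 (adjusted p = 0.318) and Cyp7b1 at 0.63 (adjusted p = 0.411) past the looser cutoff. Against control, 0 of either list were called in rescue mice. The medians there were -0.33 for the male-biased and 0.71 for the female-biased genes, and the looser cutoff was passed by 4 male-biased genes lower and 3 higher and by 6 female-biased genes higher, where 6.84% of all features passed it higher and 0.641% lower. Cyp2b9 and Cyp2a4 were at 3.42 (adjusted p = 0.0508) and 3.04 (adjusted p = 0.0559), with a mean in rescue mice of 23.6 ± 17.8 and 123 ± 74.0 TPM (SD, n = 4). Each was called in 4 of 12 fits that left out 1 mouse, and of 8 other alternatives Cyp2b9 was called in 5 and Cyp2a4 in 4. The absence of calls in these lists thus depends on the setting: with array weights 2 male-biased genes were called higher and 4 lower and 5 female-biased genes higher, and with only the 2 groups compared these counts were 2, 4 and 2. Over all 16378 features, array weights called 3059 higher and 125 lower, and the fit of only the 2 groups called 1635 higher and 58 lower.

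**Figure D4:**
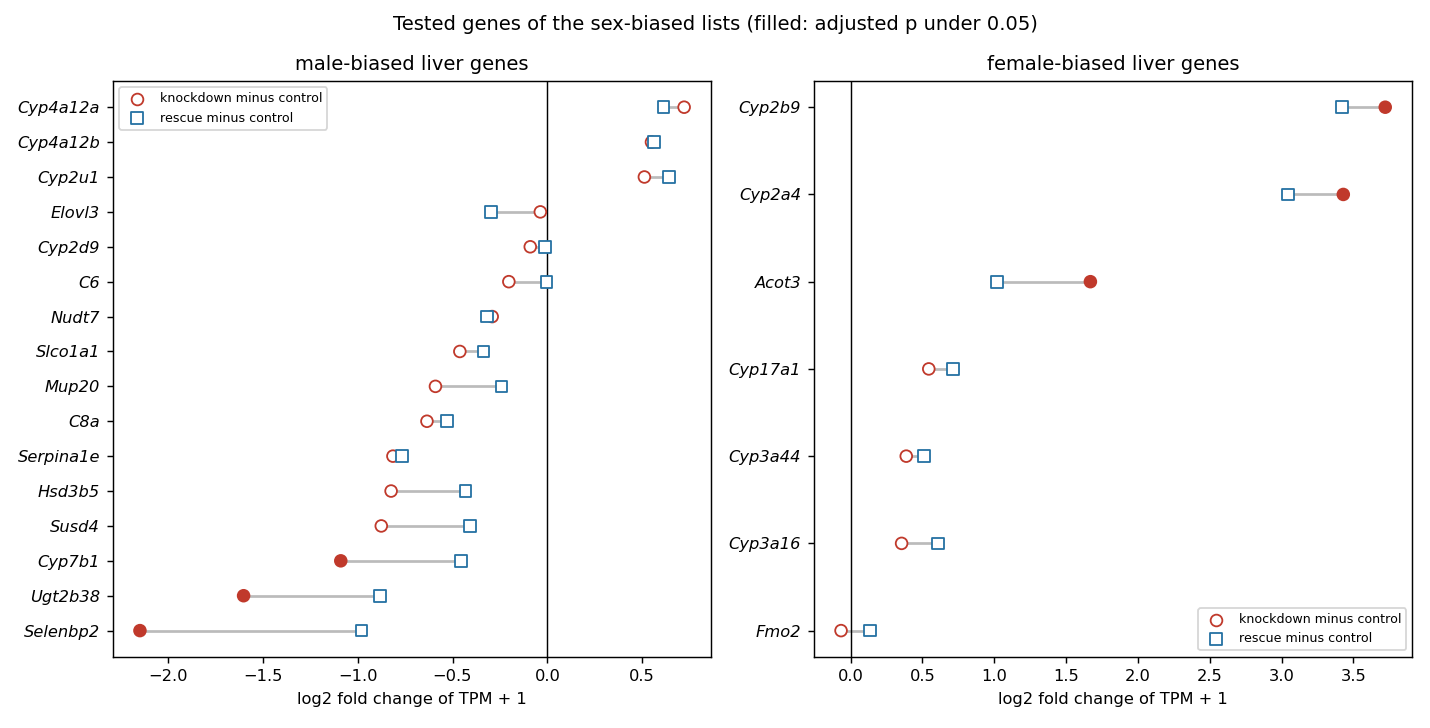
Log2 fold changes of TPM + 1 (x axis) of the tested male-biased (left, 16) and female-biased genes (right, 7), one per row on the y axis, in knockdown minus control (circles) and rescue minus control (squares), filled where the adjusted p was under 0.05. The filled points are Selenbp2, Ugt2b38 and Cyp7b1 below 0 and Cyp2b9, Cyp2a4 and Acot3 above 0, all in knockdown minus control.

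Of 12 transcription factors of growth hormone-regulated liver genes, 12 were tested and 0 were called in knockdown minus control, with a median of -0.01. An unadjusted p under 0.05 in limma was reached there by 4 of the 12, and by 3316 of all 16378 features. The most abundant, Hnf4a and Cebpb, hepatocyte regulators, were at -0.01 (adjusted p = 0.975) and -0.06 (adjusted p = 0.883), and Hnf4a turned to 0.014 under quantile normalization. In rescue minus knockdown 0 were called (median 0.24). Against control, 2 of the 12 were called higher in rescue mice and 0 lower, where 2.12% of all features were called higher. The list median was 0.19. The pioneer factor gene Foxa1, named after its values were seen, was among the 2 at 0.52 (adjusted p = 0.0414). Over all features the calls in this comparison fell from 352 to 11 with median-of-ratios scaling and to 11 with quantile normalization.

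Marker genes of other liver cells were summed per mouse beside these results. Of 8 endothelial markers 8 had a positive log2 fold change in knockdown minus control, as did 65.5% of all features. Among them 1 was called, Stab2 (0.54, adjusted p = 0.0476), where 2.44% of all features were called higher. The sum of the 8 endothelial markers ran from 173 to 279 TPM in Ad-Ctrl, from 271 to 347 in Ad-shmGULL and from 264 to 315 in rescue mice. Their part in the results above was not tested. In knockdown minus control 0 of the tested markers were called among 6 for hepatocytes, 8 for Kupffer cells and macrophages, 8 for stellate cells, 4 for cholangiocytes, 8 for T and NK cells, 3 for B cells and 4 for neutrophils, and no listed marker was at 0 in every mouse. The hepatocyte sum was 74676 to 109784 TPM in Ad-Ctrl, 80199 to 93624 in Ad-shmGULL and 67735 to 81036 in rescue mice. The Kupffer and macrophage sum was 432 to 754, 408 to 720 and 504 to 654 TPM, the stellate sum 220 to 342, 277 to 313 and 265 to 280 TPM, the cholangiocyte sum 68.2 to 105, 57.0 to 141 and 83.3 to 118 TPM, and the T and NK sum 30.9 to 106, 36.1 to 65.3 and 55.3 to 76.7 TPM in the same order. The B cell sum was 5.00 to 8.04, 7.40 to 9.70 and 5.30 to 6.23 TPM and the neutrophil sum 101 to 235, 118 to 273 and 88.9 to 141 TPM.

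The genes whose level followed a member most closely over the 12 mice were ranked by Pearson's r on log2(TPM + 1) among protein-coding genes averaging 10 TPM or more, as a description with no test. For Igf1 they were Dbt, a subunit of the branched-chain keto acid dehydrogenase, at 0.963, Osbpl2 at 0.962 and Nf2 at 0.957 among 7551 genes, and the r after removing the group means was 0.902, 0.839 and 0.859. For Ghr they were Papss2, which makes the sulfate donor of sulfotransferases, at 0.975, Setd3 at 0.956 and Ttc39b at 0.955, with 0.980, 0.940 and 0.958 within groups. For Socs2 the closest were looser, Cyb5r4 at 0.794, Cog3 at 0.791 and Nfxl1 at 0.788, with 0.749, 0.844 and 0.692 within groups. For Igfbp2 they included Eva1a at 0.887 and Coq10a at 0.868, with 0.896 and 0.891 within groups. The points share their libraries, and the largest of many correlations is high by selection. Among the 10 genes themselves, within groups, the highest r was 0.713 for Ghr with Igf1 and the lowest -0.696 for Cish with Bcl6.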

How the data were processed

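Liver RNA-Seq of 12 mice in 3 groups of 4, separate animals by the study's methods, was analysed. The authors trimmed strand-specific reads with fastp 0.23.2, checked them with FastQC 0.11.8, and aligned them with HISAT2 2.2.1.0 to GRCm38.p6. Reads per gene of GENCODE VM24 were then expressed as TPM, the unit the authors deposited. The submitters' processing notes also name featureCounts and Subread 2.0. TPM keeps no depth, so depth, counting intervals and detection limits are not given, and the spread between mice stands for precision.

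Features with a mean TPM of at least 1 were fitted on log2(TPM + 1) with limma 3.58.1 in R 4.3.3, in 1 model of 3 groups with no covariate and a mean-variance trend, two-sided, and a pseudocount of 1 that understates changes of low genes. Adjusted p-values are over all 16378 features. The looser cutoff is that of the study's methods, whose test is not given in the sources used here. The 10 genes, the lists (5 of pathway genes, 8 of markers) and the tests were chosen with earlier results of these data known. Named genes are the 10, up to 5 called genes per pathway list in knockdown minus control or the 2 most abundant where fewer than 2 were called, the 3 closest genes by r for Ghr, Socs2, Igf1 and Igfbp2, and others where said. Alternatives were 0.1 as pseudocount, testing without a filter, a filter at a mean of 5 TPM, median-of-ratios scaling, quantile normalization, only the 2 groups compared, array weights, a replicate block, and leaving out each mouse. The procedure was tested on simulated data. Positions, promoter windows and overlapping genes came from RefSeq (GRCm38.p6), and figures from Python 3.11.15 with matplotlib 3.10.9. RefSeq places further genes over Ghr, Socs2, Bcl6 and Igfals (Gm41254, Gm33230, Gm31527 and Gm41549), whose values were not analysed here. The values of 3 genes that these rules or lists reach are not reported here. All samples and columns were used.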

Additional observations from a re-analysis of the deposited data

Results flagged for a closer look

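Among 24 genes examined in each group, 72 groups of 4 mice in all, 9 single mice stood apart by Dixon's criterion, which compares the gap to the nearest mouse with the whole range. For normally distributed values chance alone would set about 1 in 20 groups apart. Whether these TPM values are so distributed was not tested, so no excess over chance is read from the count. Ghr was 191.4 TPM in Ad-Ctrl mouse 3 against 155.9 to 160.9 in the other 3, and Stat5a was 11.5 TPM in Ad-Ctrl mouse 1 against 7.96 to 8.55. Socs2 was 11.23 TPM in rescue mouse 4 against 2.47 to 3.52. Bcl6 was 54.25 TPM in Ad-Ctrl mouse 2 against 11.4 to 17.8 and 31.2 TPM in rescue mouse 3 against 16.2 to 17.5. Igfbp4 was 620.4 TPM in Ad-shmGULL mouse 2 against 878.2 to 925.3. Ad-shmGULL mouse 4 was the highest of its group for Cyp7b1, at 502.6 TPM against 206.4 to 247.3, and for Ugt2b38, at 10.62 TPM against 2.69 to 3.63. Acot3 was 45.07 TPM in rescue mouse 4 against 14.1 to 17.1.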

How the results depend on the processing

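The fall of Igf1 after knockdown kept its direction under every alternative and its call under all but the fit of only the 2 groups compared. Of the results recomputed under the other alternatives, 505 kept direction and side of the threshold, 29 lost it, 18 gained it and 24 changed sign, and on leaving out 1 mouse the counts were 759, 63, 10 and 32.

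Of the 10 genes, those called in knockdown minus control were 0 with only the 2 groups compared and 1 to 2 on leaving out 1 mouse (2 without Ad-Ctrl mouse 1), and those past the looser cutoff were 1 to 3, the 1 without Ad-Ctrl mouse 2, Ad-Ctrl mouse 4 or Ad-shmGULL mouse 1. In rescue minus knockdown the looser cutoff was passed by 0 with median-of-ratios scaling, quantile normalization and array weights, and by 0 to 1 on leaving out 1 mouse (0 without Ad-shmGULL mouse 1 or rescue mouse 3). Compared with control, 3 of the genes in rescue mice were called with array weights and 0 to 1 on leaving out 1 mouse (1 without Ad-Ctrl mouse 1), while the looser cutoff was passed by 2 with median-of-ratios scaling, by 0 with array weights, and by 0 to 2 on leaving out 1 mouse (0 without Ad-Ctrl mouse 2, Ad-Ctrl mouse 3 or rescue mouse 2, and 2 without Ad-Ctrl mouse 1 or rescue mouse 4). The cause of these changes was not tested.

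No clear pairing of the mice by replicate number was seen, though 4 mice a group cannot exclude one. Of 12 same-numbered pairs, 2 had a correlation of deviations over 0.1, and 4 of 12 samples correlated best with their own number. With the replicate block 1 gene was called in knockdown minus control, as without it, and 0 in place of 1 passed the looser cutoff in rescue minus control.

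The sign changed only in comparisons where the gene was not called. In knockdown minus control, Bcl6 was -0.00039 with median-of-ratios scaling, Igfals 0.047 with array weights and Hnf4a 0.014 with quantile normalization. In rescue minus knockdown, median-of-ratios scaling gave Stat5b -0.048, Igfbp4 -0.065, Ptpn11 -0.071 and Igf2r -0.087, quantile normalization gave Stat5b -0.042, Ptpn11 -0.065 and Igf2r -0.081, and array weights gave Igfbp4 -0.016 and Igf2r -0.0085. For rescue minus control, median-of-ratios scaling gave Ghr -0.13, Igfals -0.10, Stat3 -0.086, Ptpn11 -0.020, Igfbp7 -0.13 and Hnf4a -0.037, quantile normalization gave Ghr -0.055, Cish -0.00055, Igfals -0.071, Stat3 -0.037 and Igfbp7 -0.062, and array weights gave Bcl6 0.13. On leaving out 1 mouse, knockdown minus control ranged from -0.18 to 0.54 for Bcl6, -0.19 to 0.027 for Igfals, -0.079 to 0.11 for Stat3, -0.069 to 0.097 for Hnf4a and -0.23 to 0.099 for Cebpb. Rescue minus knockdown ranged from -0.13 to 0.026 for Stat5a, -0.38 to 0.10 for Bcl6, -0.10 to 0.092 for Igfbp4, -0.030 to 0.059 for Ptpn11, -0.057 to 0.065 for Igf2r, -0.41 to 0.0092 for Igfbp1, -1.07 to 0.38 for Cyp2b9 and -0.98 to 0.19 for Cyp2a4. Rescue minus control ranged from -0.35 to 0.37 for Bcl6, -0.017 to 0.20 for Igfals and -0.0053 to 0.18 for Igfbp7.

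Over all features, 529 were called in knockdown minus control, 236 without a filter and 33 with only the 2 groups compared, while leaving out 1 mouse gave 165 to 1057. The looser cutoff was passed by 1253, and by 765 in a fit of features averaging 5 TPM or more. For rescue minus knockdown 492 passed it, 242 in that fit and 361 to 848 on leaving out 1 mouse. For rescue minus control 352 were called, 11 with either scaling, 9 without a filter, 71 with the block, 1693 with only the 2 groups, 3184 with array weights and 3 (without Ad-Ctrl mouse 3 or 4) to 1068 (without Ad-Ctrl mouse 1) on leaving out 1 mouse, and the looser cutoff was passed by 1226, by 723 and 701 with median-of-ratios scaling and quantile normalization, and by 708 in the fit of features averaging 5 TPM or more. At the looser cutoff, higher against lower features went from 876 and 377 to 625 and 548 with median-of-ratios scaling in knockdown minus control, from 382 and 110 to 245 and 166 in rescue minus knockdown, and from 1121 and 105 to 486 and 237 in rescue minus control. With 4 mice a group and no depth, small changes of Ghr, Cish and Bcl6 could not be measured.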
